A study of Homo sapiens with 6 samples.

Results

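The enzymes of phase I and phase II drug metabolism were followed from T47D cells to their tamoxifen-resistant subline. Members were taken by gene symbol from the deposited table of 20503 genes: cytochromes P450, aldehyde dehydrogenases, flavin monooxygenases, epoxide hydrolases and carboxylesterases for phase I, and UDP-glucuronosyltransferases, sulfotransferases, glutathione transferases and N-acetyltransferases for phase II. CYP1B1 and CYP51A1 were left out by the rule. This gave 75 genes, of which 25 were CYP, 15 ALDH, 9 UGT, 7 SULT and 12 glutathione transferase genes, and 7 belonged to the remaining families. The first group was T47D, a human breast cancer line that the labels call ER-positive, and the other was its tamoxifen-resistant derivative T47D-TR, whose medium held 1 µM of 4-hydroxytamoxifen (4-OHT), an active form of the drug. Both are labelled as having the T47D background, and the stated medium is DMEM plus fetal bovine serum and penicillin/streptomycin. No drug is stated for T47D, so resistance and the presence of 4-OHT cannot be told apart. Each group had 3 libraries, T47D-TR being 1 subline, and no label states that they came from separate cultures. The p-values therefore reflect the spread among these libraries alone, and that spread may be technical.

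Phase I enzymes oxidise, reduce or hydrolyse lipophilic compounds, and phase II enzymes attach glucuronic acid, sulfate, glutathione or acetyl groups that make the products easier to export. Most of these enzymes are best known from liver, but many also make or clear hormones, retinoids, vitamin D metabolites and fatty acid mediators in epithelial cells. Tamoxifen itself is hydroxylated to 4-OHT and endoxifen mainly by CYP2D6 and demethylated by CYP3A enzymes, and the hydroxylated products are cleared by SULT1A1 and by UGT enzymes.

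Library totals were 17199315 to 19867230 counts, so that 3 counts corresponded to 0.153 to 0.178 CPM (counts relative to the library total on the usual CPM scale, with the total corrected for library composition by TMM). Replicate 3 of T47D-TR stood apart: its chi-square against replicates 1 and 2, averaged over genes, came to 8.36 and 9.58. The same measure was 2.79 between replicates 1 and 2, and 1.83 to 2.24 for pairs of T47D libraries. ESR1, the oestrogen receptor gene behind the ER-positive label, had at most 4 counts in any library (0.204 CPM), so the libraries go against that label, and whether they are T47D was not tested. Of 8 luminal markers, the keratin genes KRT8 and KRT18 were high in T47D (1338 ± 26.0 and 683 ± 18.7 CPM, SD, n = 3), while CDH1, FOXA1 and GATA3 had 2.12, 5.64 and 1.23 CPM. The mesenchymal markers VIM, CDH2 and ZEB1 had 770, 60.3 and 33.2 CPM there. In T47D-TR, by edgeR, 5 of 7 tested luminal markers were higher (KRT19 by a log2 fold change of 2.01) and 2 lower (EPCAM at -1.39), all 4 mesenchymal markers were higher (FN1 at 3.41, VIM at 0.75), and 2 of 3 tested fibroblast markers were lower (LUM at -5.75). The part of these differences in the results below was not tested. Of 8 hepatocyte markers 2 were in the table, and the sum of the pair ranged between 0.643 and 1.38 CPM over T47D libraries and between 0.355 and 1.14 CPM over T47D-TR libraries. The defining hepatocyte genes ALB and APOA1 were not analysed here.

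Members of all families except the flavin monooxygenases were called changed in T47D-TR, and more were higher than lower. A gene is called changed at an edgeR quasi-likelihood adjusted p under 0.05 over all genes tested. Of the 75 members, 59 had enough counts to be tested, and 44 were called, 31 higher and 13 lower in T47D-TR. Over all 15961 tested genes 63.0% were called, 32.5% higher and 30.5% lower. The members' 74.6% is not far above that share. Their median log2 fold change was 0.43, against 0.00 for all tested genes. Because the 9 UGT1A members largely count the same reads, they were also counted once. Then 36 of 51 tested members (70.6%) were called, 23 higher and 13 lower, and the median was 0.18. At least 2-fold, 15 of those 51 were higher and 2 lower, against 10.1% and 3.87% of all tested genes. The members CYP24A1, CYP2U1, SULT1C2 and SULT2B1 had at least 10 counts in every library of 1 group and under 10 in every library of the other. They therefore passed the filter through the group in which they were high. Without these 4, 40 of 55 were called. Without them and with UGT1A counted once, 12 of 47 were at least 2-fold higher and 1 lower, against 8.58% and 2.82% of all tested genes after the same exclusion. The libraries of the groups did not overlap in CPM for 43 of the 59 tested members, against 68.3% of all tested genes, and NAT1 was the 1 called member whose groups overlapped.

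**Figure D1:**
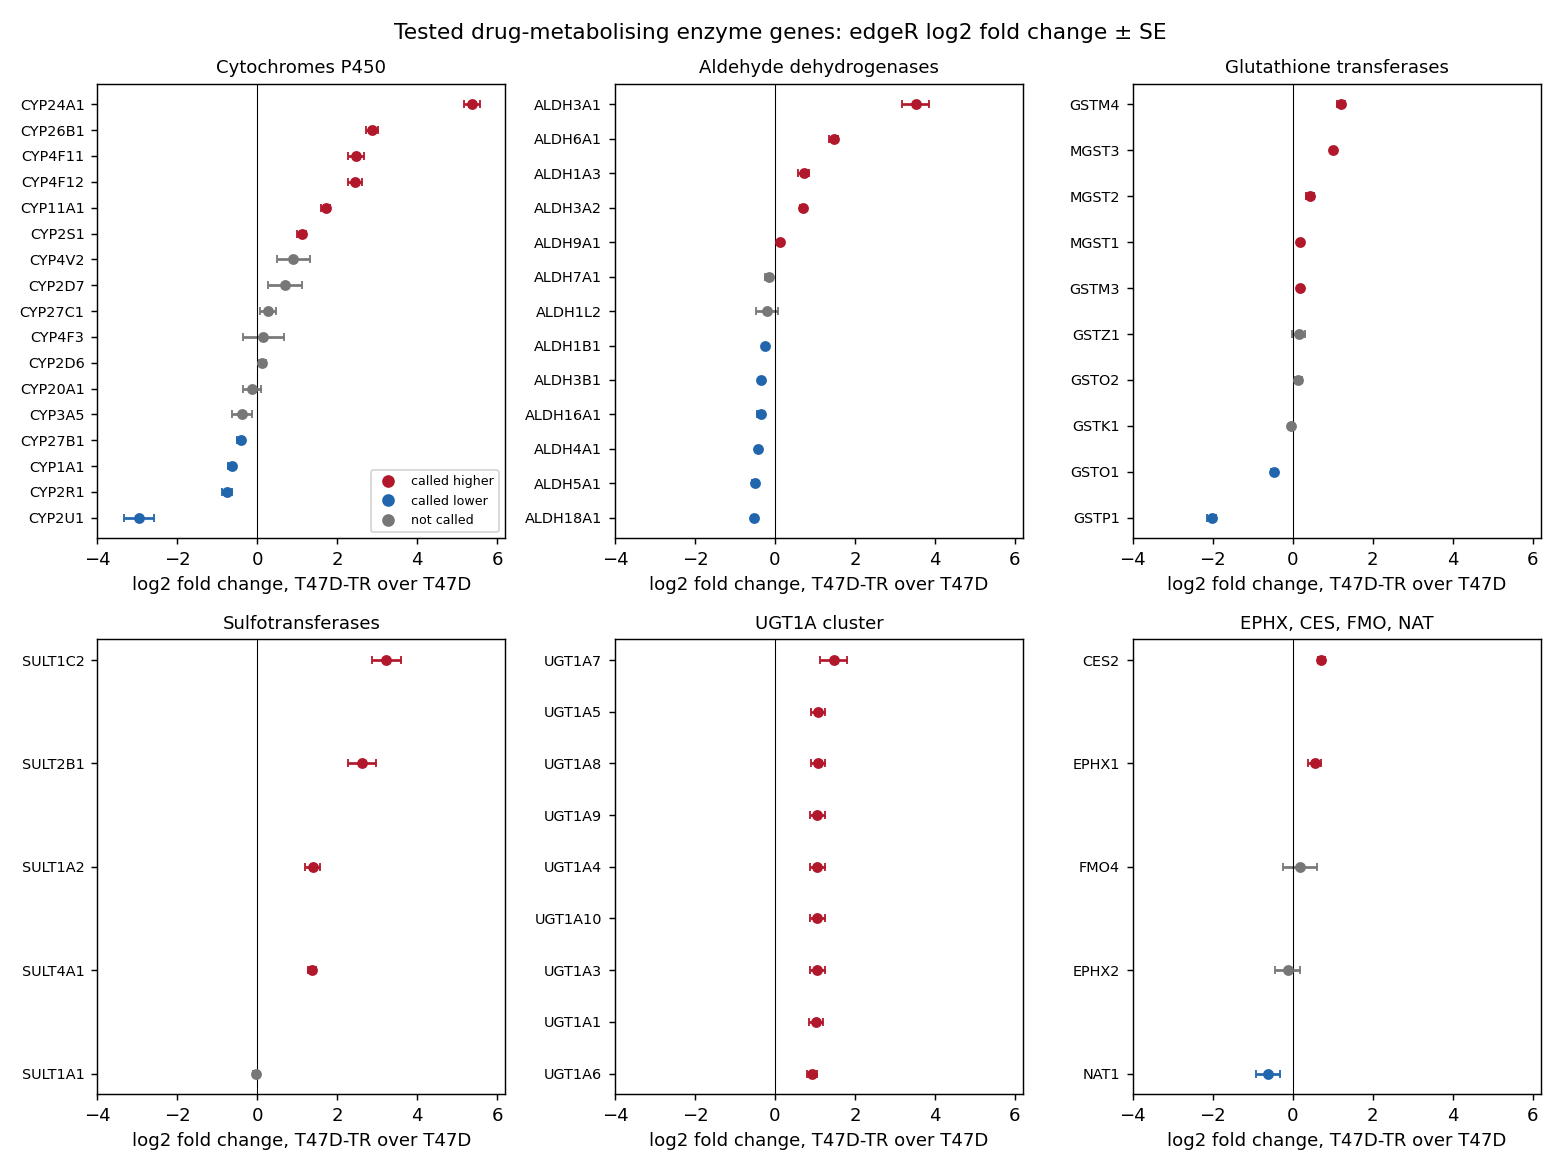
Each point is the edgeR log2 fold change of a tested member, T47D-TR over T47D, with its SE from the spread between libraries (n = 3 per group), in 6 panels by family. Red points were called higher, blue points lower, and grey points were not called. All 9 UGT1A members lie between 0.93 and 1.47, while the aldehyde dehydrogenases run from ALDH18A1 at -0.52 to ALDH3A1 at 3.52.

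The 16 members that were not tested had at most 1.36 CPM in any library. They were ALDH1L1, ALDH8A1, CES1, CYP1A2, CYP21A2, CYP26A1, CYP2E1, CYP2W1, CYP39A1, CYP3A7, CYP4X1, FMO5, GSTA4, GSTM2, SULT1A3 and SULT1A4. For CES1, which hydrolyses esters and amides, no count was seen in T47D and 9 in T47D-TR. Against the limit of 3 counts over the group this is at least 3.05-fold higher, with 7 of the 9 counts in replicate 3. CYP4X1 had 1 count in T47D and 14 in T47D-TR, a ratio of 14.3 with a 95% counting interval (exact binomial) of 2.17 to 603. Replicate 3 held 9 of the 14, and without it the ratio was 7.30 (interval 0.817 to 345). SULT1A3 had 12 and 3 counts, a ratio of T47D over T47D-TR of 3.93 (interval 1.06 to 21.7), but 98.6% of its transcript is shared in stretches of 50 bases with other genes. Such intervals and limits cover counting error only. CYP39A1, which hydroxylates an oxysterol on the way to bile acids, had 2, 7 and 3 counts in T47D and 9, 18 and 10 in T47D-TR, without overlap (ratio 3.14, interval 1.60 to 6.61). ALDH8A1 had 10, 12 and 4 counts against 1, 2 and 6, overlapping groups with a ratio of T47D over T47D-TR of 2.84 (interval 1.29 to 6.88). SULT1A4 is described with the sulfotransferases. For the other 10 untested members the interval of the ratio included 1, so that no difference was detectable at this depth.

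Glutathione transferases and aldehyde dehydrogenases held most of the highest levels among the members. Scaled to exon length, so that genes can be compared, MGST1 had the highest level of all members in both groups, with 163 CPM per kilobase in T47D and 185 in T47D-TR. GSTP1 came next in T47D with 111 CPM per kilobase and ranked 8 in T47D-TR with 27.3. GSTK1 had 73.1 and 71.3, and ALDH18A1 had 71.0 and 49.5 CPM per kilobase. EPHX1, of neither family, ranked 5 in T47D with 33.4 and 4 in T47D-TR with 48.9 CPM per kilobase. No cytochrome P450 among the members, which leave out CYP1B1 and CYP51A1, exceeded 6.18 CPM per kilobase, the level of CYP2S1 in T47D-TR. Summed over its 12 members, the glutathione transferase family amounted to 783 ± 19.1 CPM (T47D) and 826 ± 26.0 CPM (T47D-TR), and the 15 ALDH members to 662 ± 13.2 and 690 ± 29.7 CPM. The 25 CYP members summed to 57.6, 61.3 and 59.0 CPM in the T47D libraries and to 105, 112 and 119 CPM in the T47D-TR libraries, without overlap. No test was made of these sums.

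**Figure D2:**
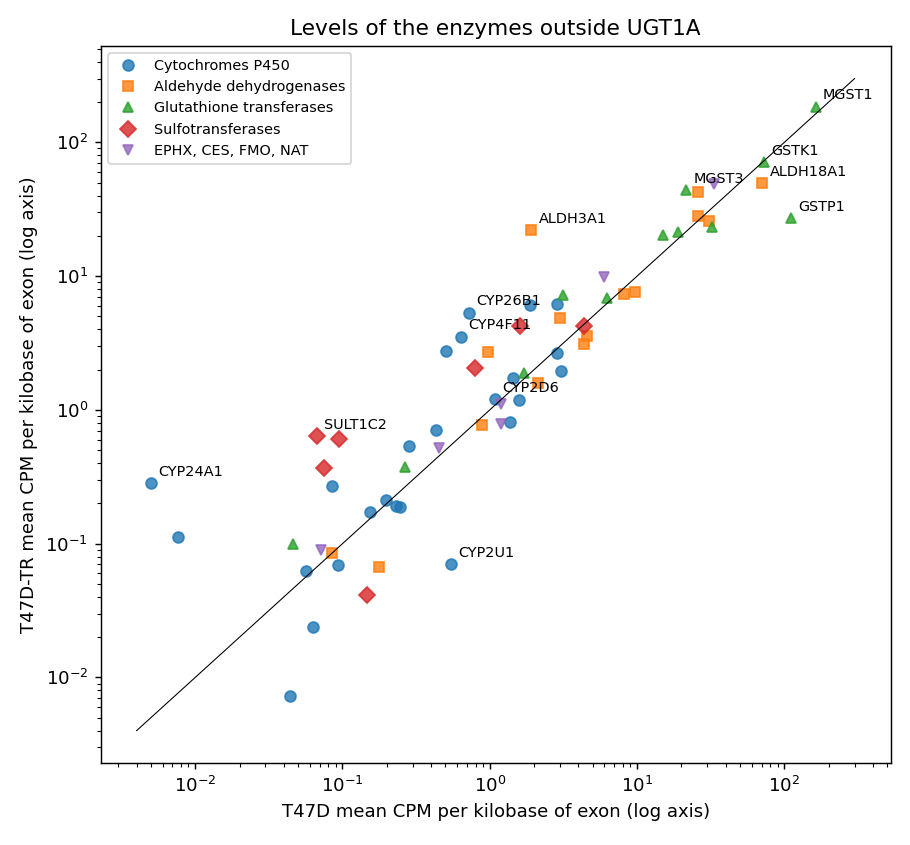
Each point is a member outside UGT1A, with its mean level per kilobase of exon in T47D on the x axis and in T47D-TR on the y axis, both on log axes. The line marks equal levels. CES1, at 0 in T47D, is not drawn. GSTP1 and CYP2U1 lie far below the line, and ALDH3A1, CYP26B1 and CYP24A1 far above it.

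Among the cytochromes P450, haem enzymes that insert an oxygen atom into their substrates, 17 of 25 were tested, with 6 called higher, 4 lower and 7 not called. The 58.8% called was under the 63.0% of all tested genes. All 6 that were higher were at least 2-fold higher, CYP24A1 among them, which passed the filter through T47D-TR alone, as CYP2U1 of those that were lower did through T47D. CYP26B1, which breaks down retinoic acid (chromosome 2, 72129238 to 72147862, GRCh38), had 3.28, 3.99 and 3.16 CPM in the T47D libraries and 25.8, 28.9 and 22.2 CPM in those of T47D-TR. Every T47D-TR library lay above every T47D library, by a log2 fold change of 2.88 ± 0.15 (SE; edgeR adjusted p = 2.4e-09). Its relative CYP26A1 had 9 counts in T47D and 3 in T47D-TR in all. ALDH1A3, which makes retinoic acid from retinal, was also higher, with 16.1 ± 1.64 CPM before and 26.4 ± 3.60 CPM in the subline (log2 0.72 ± 0.14, edgeR adjusted p = 8.1e-05). DHRS3, an enzyme outside the rule that turns retinal back into retinol, had 8.11 ± 0.642 and 20.5 ± 3.74 CPM, a log2 fold change of 1.33 (edgeR adjusted p = 2.2e-06).

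Cytochromes of vitamin D metabolism went in opposite directions. CYP2R1, which performs the first hydroxylation of vitamin D, fell, with means of 4.13 ± 0.480 and 2.45 ± 0.282 CPM (log2 -0.75 ± 0.13, edgeR adjusted p = 0.0022). CYP27B1, which makes the active hormone, stood at 4.02 ± 0.345 and 3.03 ± 0.203 CPM (log2 -0.41 ± 0.09, edgeR adjusted p = 0.039). That call ended with DESeq2 (-0.41, adjusted p = 0.17), with the replicate block (-0.40, edgeR adjusted p = 0.063), and without any single library except T47D-TR replicate 3 (edgeR adjusted p = 0.053 to 0.13). CYP24A1, which inactivates vitamin D, had 0, 0 and 1 count in T47D and 20, 19 and 17 in T47D-TR. The ratio was 57.0 with a 95% counting interval of 9.82 to 2291, and edgeR gave an adjusted p = 1.2e-05. CYP11A1, the side-chain cleavage enzyme that begins steroid hormone synthesis, rose, with means of 4.51 ± 0.502 and 14.8 ± 1.10 CPM (log2 1.71 ± 0.11, edgeR adjusted p = 9e-08).

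Of the cytochromes that oxidise fatty acids, the CYP4F genes on chromosome 19 were not all alike. CYP4F11 (15912377 to 15934867) had 3.02, 2.097 and 2.57 CPM in T47D and 13.2, 12.7 and 16.8 CPM in T47D-TR, a log2 fold change of 2.47 ± 0.19 (edgeR adjusted p = 6e-08). CYP4F12 (15673087 to 15697174) had 1.02, 0.972 and 1.18 CPM in T47D and 4.72, 5.81 and 6.81 CPM in T47D-TR (log2 2.44 ± 0.17, edgeR adjusted p = 5.8e-07). In both genes each T47D-TR library exceeded each T47D library. CYP4F3 between 15640897 and 15662825 was not called, with 0.810 ± 0.106 and 0.918 ± 0.531 CPM (log2 0.15 ± 0.51, edgeR adjusted p = 0.76), and 9.9% of its 50-base stretches also occur in other genes. CYP2U1, another fatty acid hydroxylase (chromosome 4, 107931549 to 107953461), had 2.69, 2.97 and 2.79 CPM in T47D and 0.156, 0.459 and 0.474 CPM in T47D-TR. Its log2 fold change of -2.95 ± 0.38 (edgeR adjusted p = 3.9e-06) was the lowest of all tested members. CYP2S1, an epithelial enzyme that is inducible through the dioxin receptor, had 7.16, 8.80 and 7.82 CPM in T47D and 15.8, 17.5 and 18.3 CPM in T47D-TR (log2 1.11 ± 0.11, edgeR adjusted p = 1.5e-06).

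CYP1A1, the classical target of the aryl hydrocarbon (dioxin) receptor AHR, moved the other way. It had 8.51, 10.1 and 9.43 CPM in T47D and 6.22, 5.51 and 6.34 CPM in T47D-TR, without overlap (log2 -0.64 ± 0.09, edgeR adjusted p = 0.00046). The related CYP1B1, left out by the rule, fell from 66.3 ± 1.77 to 27.2 ± 2.48 CPM (log2 -1.29), and the receptor's repressor gene AHRR, itself a target, from 50.2 ± 2.60 to 4.40 ± 1.34 CPM (log2 -3.52 ± 0.26, edgeR adjusted p = 5.8e-10). AHR itself was higher, with 125, 129 and 117 CPM in T47D and 225, 275 and 179 CPM in T47D-TR (log2 0.87 ± 0.18, edgeR adjusted p = 2.5e-05). CYP1A2 had 7 counts in T47D, all in replicate 2, and 1 in T47D-TR.

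Of 18 enzymes known for the metabolism of tamoxifen, 8 were in the table, of which CYP1A2 was not tested. UGT1A4, UGT1A8 and UGT1A10, which count the same reads, were called higher and CYP1A1 lower, and CYP2D6, CYP3A5 and SULT1A1 were not called. The 57.1% called of these 7 was under the 63.0% of all tested genes. The other 10, among them CYP3A4, SULT2A1, UGT2B7 and UGT2B15, were not analysed here. CYP2D6 had 1.72, 2.097 and 1.88 CPM in T47D and 2.02, 2.09 and 2.13 CPM in T47D-TR, overlapping groups with a log2 fold change of 0.13 ± 0.08 (edgeR adjusted p = 0.58). Its neighbour CYP2D7 shares sequence with it, 35.9% of the 50-base stretches of CYP2D6 occurring in other genes, so how reads were split between the pair is not known. CYP3A5 had 1.02, 0.818 and 1.13 CPM in T47D and 0.881, 0.510 and 0.888 CPM in T47D-TR (log2 -0.38 ± 0.26, edgeR adjusted p = 0.30). SULT1A1 had 10.9, 12.3 and 11.04 CPM in T47D and 10.7, 11.1 and 11.7 CPM in T47D-TR (log2 -0.04 ± 0.07, edgeR adjusted p = 0.77). None of these 3 was called in any of the settings tried, with log2 fold changes from -0.05 to 0.20 for CYP2D6, -0.57 to -0.15 for CYP3A5 and -0.21 to 0.02 for SULT1A1. The other cytochromes that were not called were CYP20A1, CYP27C1, CYP2D7 and CYP4V2.

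**Figure D3:**
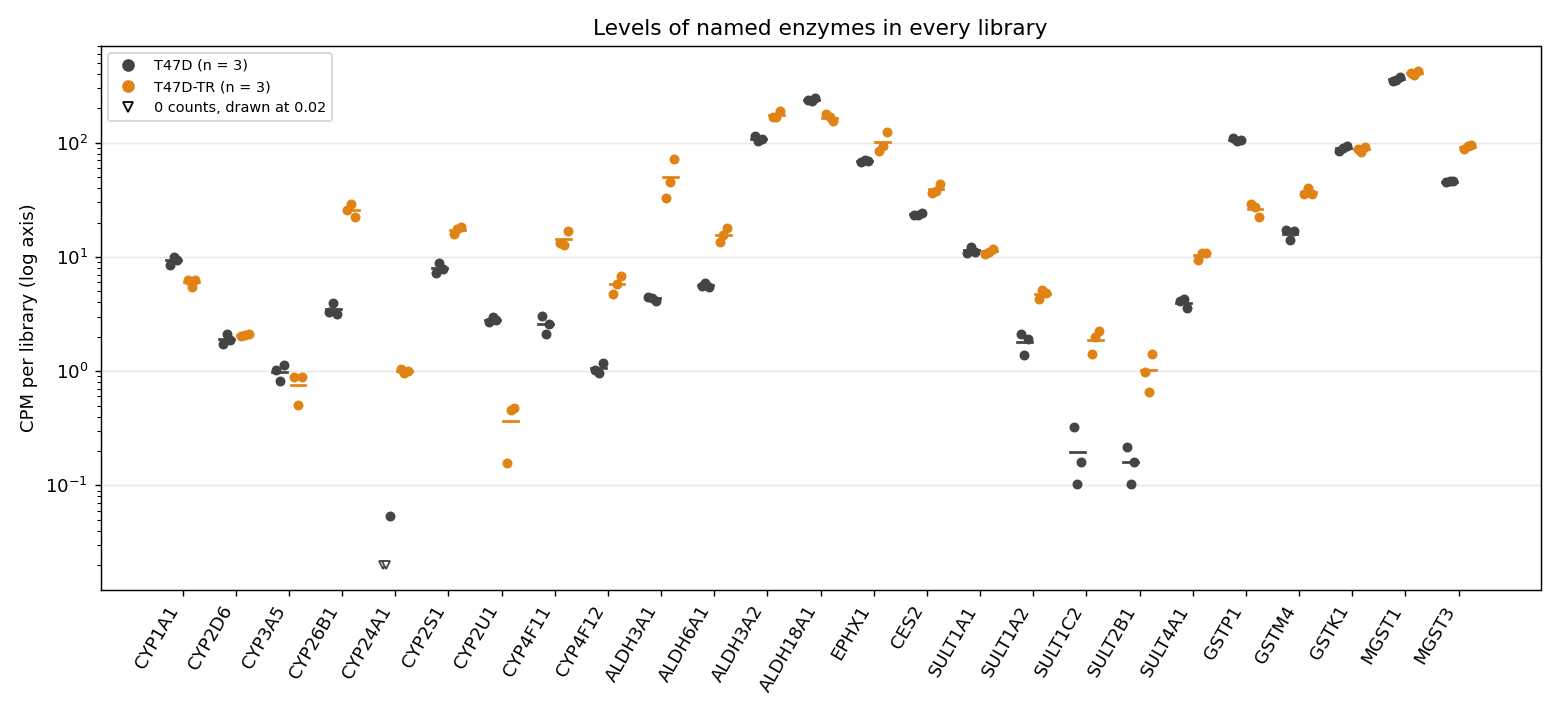
The y axis gives CPM on a log scale for 25 enzymes, with 1 point per library and a bar at the group mean (T47D grey, T47D-TR orange, n = 3 each). Open triangles mark 0 counts. The groups overlap for CYP2D6, CYP3A5, SULT1A1 and GSTK1, and are far apart for CYP26B1, CYP2U1, ALDH3A1 and GSTP1.

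Aldehyde dehydrogenases, which oxidise aldehydes to acids with NAD or NADP, split by gene: 5 of 13 tested members were higher, 6 lower and 2 not called. Their median log2 fold change was -0.20, and 84.6% of them were called, against 63.0% of all tested genes. ALDH3A1, which clears aromatic and lipid-derived aldehydes (chromosome 17, 19737984 to 19748298), had 4.47, 4.40 and 4.13 CPM in T47D and 33.1, 44.9 and 72.4 CPM in T47D-TR. The highest value came from replicate 3, and without it the log2 fold change went from 3.52 ± 0.33 (edgeR adjusted p = 2e-07) to 3.17. Its chromosomal neighbour ALDH3A2, the fatty aldehyde dehydrogenase (19648136 to 19677596), had 114, 103 and 107 CPM in T47D and 167, 169 and 190 CPM in T47D-TR (log2 0.70 ± 0.07, edgeR adjusted p = 5.4e-07). ALDH6A1, a mitochondrial enzyme of valine breakdown, had 5.60, 5.88 and 5.41 CPM in T47D and 13.6, 15.5 and 17.8 CPM in T47D-TR (log2 1.47 ± 0.12, edgeR adjusted p = 4.4e-07).

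ALDH18A1, which makes the proline precursor pyrroline-5-carboxylate rather than clearing an aldehyde, had 235, 234 and 247 CPM in T47D and 177, 167 and 155 CPM in T47D-TR. It was lower in all T47D-TR libraries (log2 -0.52 ± 0.06, edgeR adjusted p = 2.8e-06). The other members that fell were ALDH4A1 of proline breakdown, ALDH5A1 of GABA breakdown, ALDH1B1, ALDH3B1 and ALDH16A1, with log2 fold changes of -0.25 to -0.50. ALDH16A1 shares exon sequence on the opposite strand with PIH1D1, and 42.8% of the 50-base stretches of ALDH4A1 occur in another annotated gene. ALDH9A1 was just past the threshold (log2 0.13 ± 0.04, edgeR adjusted p = 0.045) and lost its call under 10 of 13 alternatives. ALDH7A1 (-0.16) and ALDH1L2 (-0.20) were not called, but without T47D-TR replicate 3 both were lower, at -0.23 (edgeR adjusted p = 0.0023) and -0.50 (0.0041). With voom both were lower as well (adjusted p = 0.03 and 0.046), and edgeR called ALDH7A1 lower with library size alone (adjusted p = 0.028) and with the replicate block (0.042).

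Of the hydrolases, EPHX1, the microsomal epoxide hydrolase, had 67.7, 69.9 and 69.0 CPM in T47D and 85.0, 93.7 and 124 CPM in T47D-TR (log2 0.55 ± 0.16, edgeR adjusted p = 0.00062), with the highest value in replicate 3 and a log2 fold change of 0.38 without it. Its exons overlap those of TMEM63A on the opposite strand. CES2, a carboxylesterase, had 23.3, 23.5 and 24.2 CPM in T47D and 36.0, 37.7 and 43.5 CPM in T47D-TR (log2 0.72 ± 0.08, edgeR adjusted p = 4.8e-06). EPHX2, the soluble epoxide hydrolase, and FMO4 were not called at log2 fold changes of -0.12 ± 0.31 and 0.18 ± 0.42, although without T47D-TR replicate 3 EPHX2 was lower (-0.44, edgeR adjusted p = 0.047). NAT1, an arylamine N-acetyltransferase, stood at 3.42 ± 0.446 and 2.26 ± 0.790 CPM (log2 -0.61 ± 0.30, edgeR adjusted p = 0.039). Its call ended with DESeq2 (adjusted p = 0.08) and without T47D replicate 1 or 3 or T47D-TR replicate 1 or 2 (edgeR adjusted p = 0.086 to 0.16).

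The UGT1A genes encode enzymes that attach glucuronic acid to bilirubin, oestrogens and drugs, hydroxylated tamoxifen included. They are 9 overlapping genes on chromosome 2 that begin at their own first exon and share all later exons, the last gene ending at 233773300. The splice into the shared part shows this. Below are the last 30 bases of the first exon in lower case and the first 30 bases of the shared second exon (233767034 to 233767165) in capitals, from GENCODE 29 transcripts (GRCh38, plus strand).
UGT1A1: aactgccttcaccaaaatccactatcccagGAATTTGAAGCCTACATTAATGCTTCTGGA
UGT1A4: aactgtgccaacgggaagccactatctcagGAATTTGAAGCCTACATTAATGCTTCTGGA
UGT1A6: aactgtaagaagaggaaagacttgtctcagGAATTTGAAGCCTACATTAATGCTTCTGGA
UGT1A7: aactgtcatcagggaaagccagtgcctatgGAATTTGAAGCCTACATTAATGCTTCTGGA
The capitals are identical, while the lower-case part differs between the 4. From 34.2% to 79.3% of the 50-base stretches of the 9 transcripts also occur in another gene.

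The counts of the cluster followed this structure. UGT1A8 had 64, 70 and 72 counts in the T47D libraries and 125, 135 and 163 in those of T47D-TR. UGT1A1, UGT1A3, UGT1A4, UGT1A5, UGT1A9 and UGT1A10 lay within 5 counts of UGT1A8 in every library. These 7 members are therefore 1 measurement and not 7, and their values do not show which first exon was used. A further entry named UGT1A, which the rule does not take, had 301, 305 and 284 counts in T47D. In T47D-TR it had 433, 478 and 584. It exceeded every member of the cluster in each library, so the members do not hold all counts given to the locus. How its reads relate to theirs was not tested. All 9 were called higher, UGT1A4, UGT1A5, UGT1A8 and UGT1A10 with log2 fold changes of 1.06 to 1.07 ± 0.18 (edgeR adjusted p = 0.00012 to 0.00014). UGT1A4 had 3.45, 3.63 and 3.91 CPM in T47D and 6.53, 6.88 and 9.65 CPM in T47D-TR, with replicate 3 highest.

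UGT1A6 and UGT1A7 held reads beyond the level common to the cluster. UGT1A6, which prefers simple phenols, had 113, 117 and 125 counts in T47D and 205, 219 and 236 in T47D-TR. The excess over the lowest member of the cluster was 49, 47 and 53 counts in T47D and 80, 84 and 73 in T47D-TR, or 2.64, 2.40 and 2.84 CPM against 4.15, 4.28 and 4.32 CPM. UGT1A7, an enzyme of the upper digestive tract, had an excess of 13, 14 and 14 counts in T47D and 41, 55 and 145 in T47D-TR, or 0.700, 0.716 and 0.750 CPM against 2.13, 2.81 and 8.59 CPM. The excess of both genes was higher in every T47D-TR library, and for UGT1A7 replicate 3 held more of it than replicates 1 and 2 together. This difference of counts was taken after the values were seen and is given without a test. The whole UGT1A7 count had a log2 fold change of 1.47 ± 0.34 (edgeR adjusted p = 0.00022), and of 1.07 without that library.

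**Figure D4:**
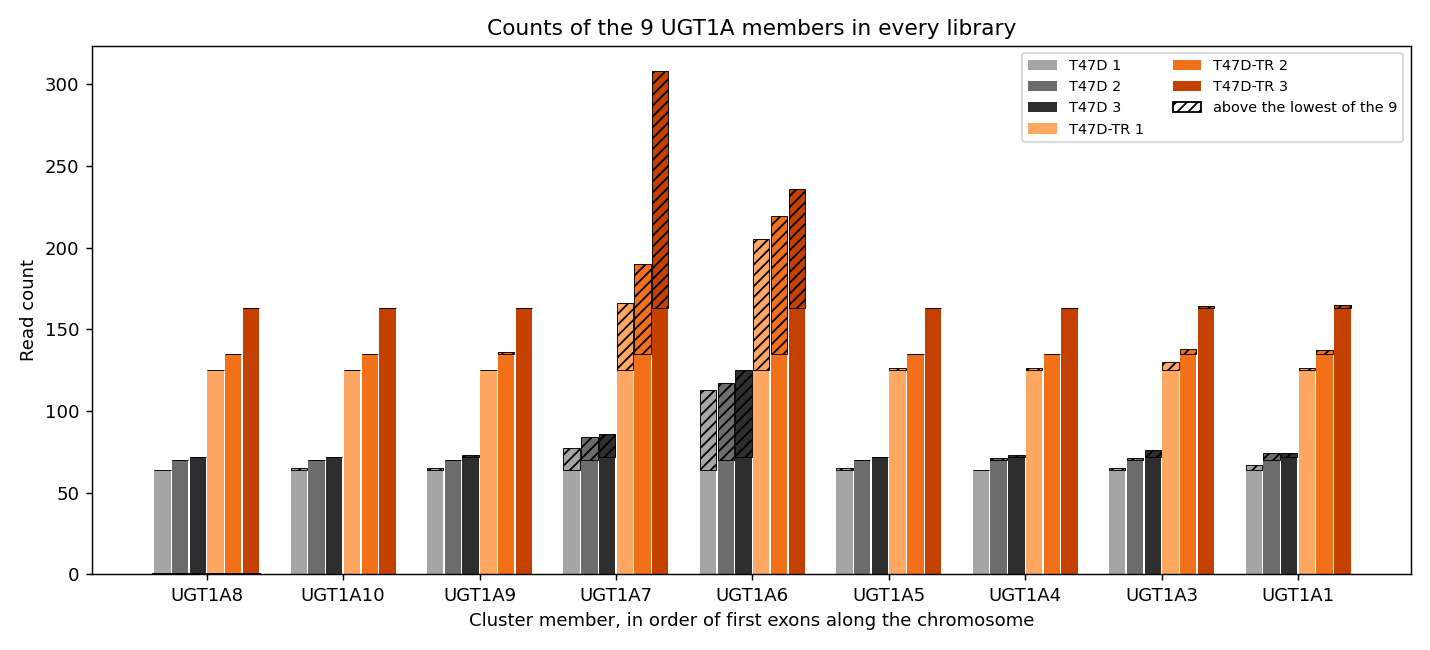
Bars give the read count of each UGT1A member in each of the 6 libraries (T47D grey, T47D-TR orange), and the hatched part is the count above the lowest of the 9 members in that library. The plain parts are equal by construction, and 7 members have almost no hatched part. UGT1A6 and UGT1A7 have hatched parts in all libraries, the tallest being the 145 counts of UGT1A7 in T47D-TR replicate 3.

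Sulfotransferases, which transfer sulfate from PAPS to phenols and steroids, were called higher in 4 of 5 tested members, and SULT1A1 was not called. The 80.0% called higher stands against 32.5% of all tested genes. Of the 4 called higher, SULT1C2 and SULT2B1 were tested only because of their counts in T47D-TR, so the count does not describe the family. SULT1A2 had 2.1, 1.38 and 1.93 CPM in T47D and 4.25, 5.10 and 4.80 CPM in T47D-TR (log2 1.39 ± 0.19, edgeR adjusted p = 3.9e-05). It is the neighbour and close copy of SULT1A1 on chromosome 16, with 22.3% of its 50-base stretches in other genes, so its separation from SULT1A1 is uncertain. SULT1C2 had 6, 2 and 3 counts in T47D and 27, 39 and 38 in T47D-TR (log2 3.23 ± 0.36, edgeR adjusted p = 1.6e-05). SULT2B1, which sulfates cholesterol and other hydroxysteroids, had 4, 2 and 3 counts in T47D and 19, 13 and 24 in T47D-TR (log2 2.62 ± 0.34, edgeR adjusted p = 0.00035). Both were near the limit of detection in T47D, at 0.195 ± 0.114 and 0.160 ± 0.0566 CPM. SULT4A1, a member known from brain, had 4.15, 4.25 and 3.54 CPM in T47D and 9.49, 10.9 and 10.8 CPM in T47D-TR (log2 1.38 ± 0.10, edgeR adjusted p = 1.1e-06). SULT1A4, nearly identical to SULT1A3 with 99.0% shared stretches, had 23 of its 27 T47D-TR counts in replicate 3.

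Glutathione transferases conjugate electrophiles with glutathione, and the MGST genes encode membrane-bound enzymes of the same activity. Of 10 tested members 5 were higher, 2 lower and 3 not called (GSTK1, GSTO2 and GSTZ1). The share called was 70.0%, against 63.0% of all tested genes. GSTP1, the pi-class enzyme (chromosome 11, 67583812 to 67586653), had 110, 104 and 107 CPM in T47D and 28.9, 27.3 and 22.3 CPM in T47D-TR. All T47D-TR libraries lay below all T47D libraries (log2 -2.02 ± 0.11, edgeR adjusted p = 5.6e-10), with no shared 50-base stretch. GSTO1, an omega-class enzyme, fell, with means of 42.1 ± 2.79 and 30.5 ± 1.54 CPM (log2 -0.47 ± 0.07, edgeR adjusted p = 7.4e-05). GSTK1, a mitochondrial and peroxisomal enzyme, had 85.3, 90.1 and 93.5 CPM in T47D and 87.4, 82.9 and 91.9 CPM in T47D-TR, overlapping groups with a log2 fold change of -0.04 ± 0.06 (edgeR adjusted p = 0.58).

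The 5 members that rose were GSTM3 and GSTM4 of the mu class and the membrane-bound MGST1, MGST2 and MGST3. GSTM4 had 17.2, 14.1 and 16.7 CPM in T47D and 35.5, 40.1 and 35.6 CPM in T47D-TR (log2 1.21 ± 0.11, edgeR adjusted p = 1.5e-07). Its exons overlap those of GSTM2 next to it, and 11.7% of its 50-base stretches occur in other genes. MGST3 (chromosome 1, 165631234 to 165656136) had 45.1, 45.8 and 46.4 CPM in T47D and 88.3, 94.0 and 95.5 CPM in T47D-TR (log2 1.02 ± 0.04, edgeR adjusted p = 7.4e-09). MGST1, the most abundant member, had 348, 355 and 376 CPM in T47D and 405, 394 and 428 CPM in T47D-TR (log2 0.19 ± 0.05, edgeR adjusted p = 0.0034). MGST2 and GSTM3 rose by 0.43 ± 0.10 and 0.18 ± 0.02 on the log2 scale.

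The sequence before the start of 3 members that moved in different directions is shown because it holds motifs of the factors known for inducing such enzymes. Capitals mark the core of the xenobiotic response element bound by AHR (GCGTG), the antioxidant response element bound by NRF2 (TGACNNNGC) and the AP-1 site (TGANTCA), each searched on both strands in the RefSeq promoter windows of 300 bases (GRCh38.p14). The 250 bases before the start are printed for GSTP1 (chr11:67583562-67583811, plus strand), CYP1A1 (chr15:74725529-74725778, minus strand) and CYP4F11 (chr19:15934868-15935117, minus strand).
GSTP1: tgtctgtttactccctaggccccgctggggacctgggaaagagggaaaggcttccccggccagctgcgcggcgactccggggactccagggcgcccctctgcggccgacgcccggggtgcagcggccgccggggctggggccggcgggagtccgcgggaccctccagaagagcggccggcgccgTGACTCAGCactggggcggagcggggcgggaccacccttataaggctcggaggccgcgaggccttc
CYP1A1: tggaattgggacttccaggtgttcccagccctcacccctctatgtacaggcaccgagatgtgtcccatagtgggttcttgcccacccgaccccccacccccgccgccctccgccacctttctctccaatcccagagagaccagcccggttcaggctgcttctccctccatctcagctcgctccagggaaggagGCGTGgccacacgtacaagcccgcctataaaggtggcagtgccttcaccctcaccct
CYP4F11: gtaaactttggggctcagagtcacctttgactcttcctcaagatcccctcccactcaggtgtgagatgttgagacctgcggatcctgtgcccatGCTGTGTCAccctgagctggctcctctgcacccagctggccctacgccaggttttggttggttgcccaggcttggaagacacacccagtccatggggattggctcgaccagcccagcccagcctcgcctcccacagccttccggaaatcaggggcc
In GSTP1 the antioxidant element and the AP-1 site overlap in 1 run of capitals, and in CYP4F11 the element lies on the opposite strand.

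A window was given for 59 of the 75 members. The GCGTG core was present in 35.6% of them, against 36.5% of all 35116 windows, the antioxidant element in 11.9% against 13.3%, and the AP-1 site in 5.08% against 7.71%. Of 20 tested members with the GCGTG core 13 were called higher (65.0%) and 3 lower (15.0%), against 32.5% and 30.5% of all tested genes. Among the 13 are UGT1A3, UGT1A4, UGT1A6, UGT1A7, UGT1A8 and UGT1A9. These largely count the same reads, so their calls cannot be tied to their own windows. Outside UGT1A 7 of 14 were higher and 3 lower, against 44.0% and 26.0% of all tested members outside UGT1A. SULT2B1 (higher) and CYP2U1 (lower) of those 14 passed the filter through the group in which they were high. Of 6 tested members with the antioxidant element, CYP4F11, SULT1C2 and UGT1A5 were higher, GSTO1 and GSTP1 lower, and CYP4V2 was not called. The call of UGT1A5 likewise cannot be tied to its own window. Outside UGT1A 2 of 5 were higher and 2 lower, against 44.0% and 26.0% of all tested members outside UGT1A. SULT1C2 of those 5 passed the filter through T47D-TR alone, the group in which it was high. A match describes the letters of the window and does not show a bound site.

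Genes that supply, control or complement these enzymes were taken from a list of 82 outside the rule, of which 62 were tested. There 26 were called higher and 16 lower (67.7% called, against 63.0% of all tested genes), with a median log2 fold change of 0.12. Of 21 tested electron donors and cofactor genes 7 rose and 5 fell (33.3% and 23.8%, against 32.5% and 30.5% of all tested genes). POR, the reductase that feeds electrons to microsomal cytochromes P450, rose, with 114 ± 0.565 and 144 ± 5.38 CPM (log2 0.34 ± 0.03, edgeR adjusted p = 3.2e-05). UGP2, which makes UDP-glucose for glucuronidation, rose by 0.50 on the log2 scale (edgeR adjusted p = 5.5e-06). Of the genes that make or recycle glutathione, GSS was not called (log2 0.05) and 3 fell: GSR, glutathione reductase, by 0.82, GCLM by 0.78 and GCLC by 0.45 on the log2 scale, the last pair encoding the subunits of the rate-limiting ligase.

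Of 12 tested control factors 6 rose and 2 fell. The share called was 66.7%, against 63.0% of all tested genes, of which 32.5% were higher and 30.5% lower. Besides AHR and AHRR, PPARA, a fatty acid receptor, rose by 1.34 (edgeR adjusted p = 9e-09) and CEBPB by 0.80 on the log2 scale. Of 29 other metabolising enzymes 13 rose and 9 fell (44.8% and 31.0%, against 32.5% and 30.5% of all tested genes). MAOB, a monoamine oxidase, rose, with 0.583 ± 0.118 and 22.9 ± 7.62 CPM (log2 5.28 ± 0.30, edgeR adjusted p = 1.7e-08), while its neighbour on the X chromosome, MAOA, fell, with 1.76 ± 0.133 and 0.298 ± 0.184 CPM (log2 -2.51 ± 0.36, edgeR adjusted p = 5.2e-05). HSD11B2, which inactivates cortisol, fell by 3.39, ARSA, a lysosomal sulfatase, rose by 1.69 and XDH, xanthine dehydrogenase, rose by 2.08 on the log2 scale. HSD11B2 had 47, 50 and 66 counts in T47D and 7, 4 and 4 in T47D-TR. XDH had 3, 9 and 8 counts in T47D and 28, 41 and 16 in T47D-TR. Both passed the filter through the group in which they were high. So did the control factor KEAP1, with 2, 4 and 3 counts in T47D and 20, 13 and 20 in T47D-TR. MAOA had 30, 35 and 35 counts in T47D and 4, 10 and 3 in T47D-TR. MAOB had 11, 9 and 13 counts in T47D and 348, 372 and 535 in T47D-TR. MAOA and MAOB thus also reached 10 counts in all libraries of only 1 group, that in which they were high. The tallies of partner genes include all of these genes.

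**Figure D5:**
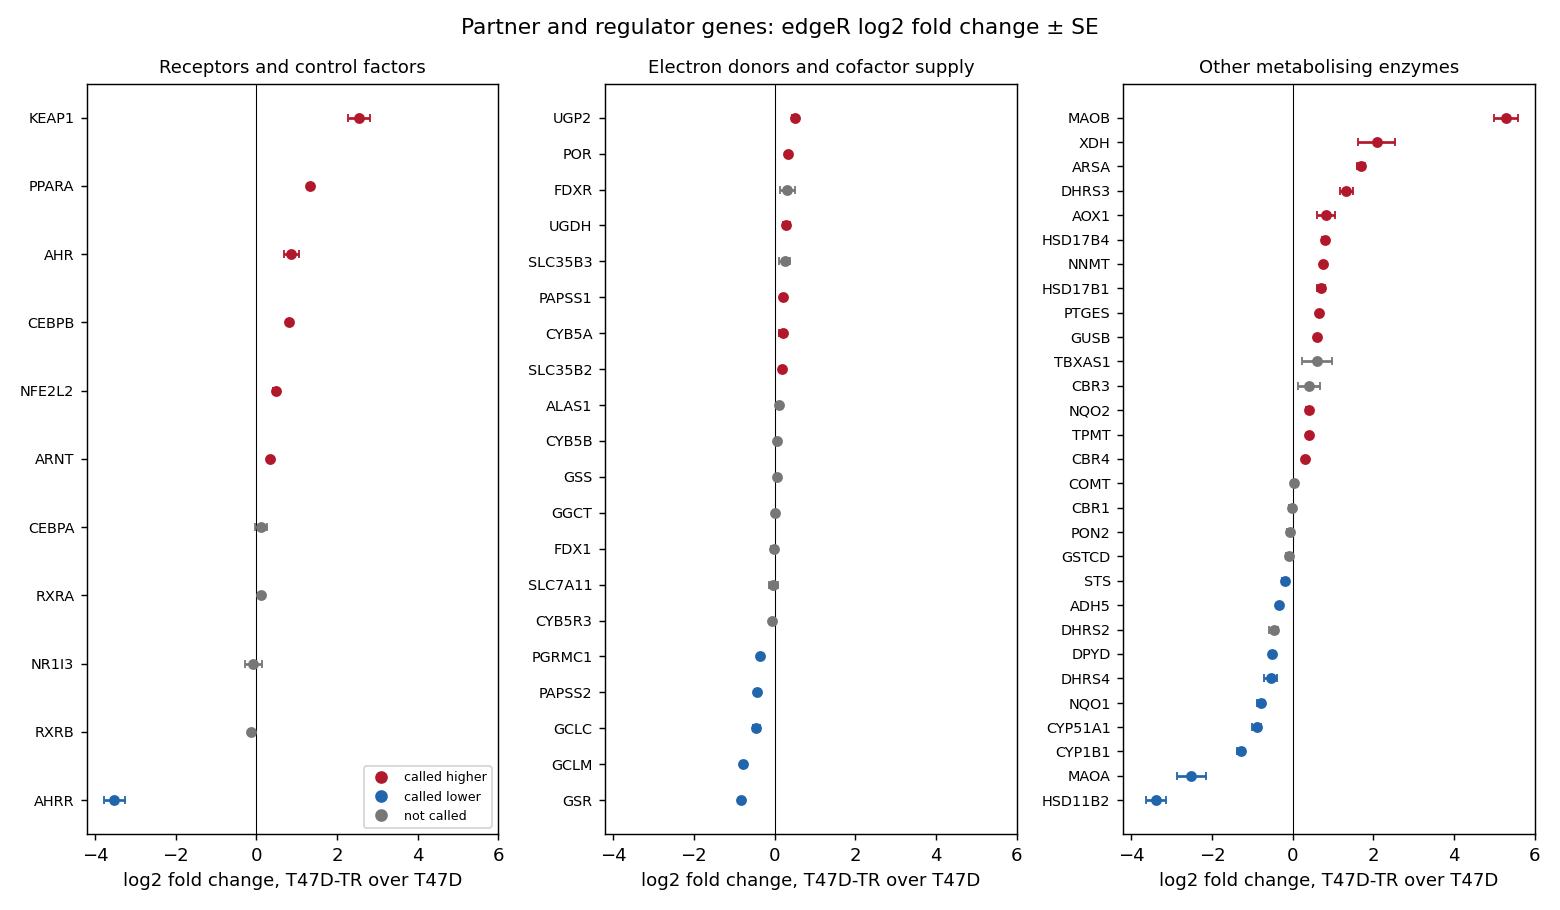
Each point is the edgeR log2 fold change ± SE of a tested partner gene (2 tested genes are not drawn), T47D-TR over T47D (n = 3 per group), in 3 panels by role, with calls coloured red (higher), blue (lower) and grey (not called). AHRR at -3.52 and MAOB at 5.28 lie at the ends, and the cofactor genes stay between -0.82 and 0.50.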

How the data were processed

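RNA of 6 libraries was poly(A)-selected and made into directional libraries, per the labels' protocols. The submitters' processing notes list HISAT2 2.1.0, DESeq and the build GRCh38. Details of counting (program, annotation, strand) were not given in the sources used here. In the authors' file, although named as FPKM, the deposited values are whole-number counts per gene and library, and the authors' own statistics were not used. The members and lists were chosen with earlier results of these data known.

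Counts were scaled with TMM and filtered with filterByExpr (minimum count 10, minimum total 15). edgeR 4.0.16 (glmQLFit, glmQLFTest) was fitted on the whole table, with Benjamini-Hochberg adjustment over 15961 genes, 2-sided. SE comes from log2 CPM with a prior count of 2. In simulated data of 15426 genes edgeR recovered 46% of changes of 1.25-fold, 86% of 1.5-fold and 100% of 2-fold, with 9 false calls. The simulation used a dispersion common to all genes, changed only genes above 1 CPM and gave no library extra spread. Its rates therefore need not hold for these libraries or for members at low counts. Alternatives used DESeq2 1.42.0 and limma 3.58.1. Lengths, overlaps and shared stretches of 50 bases come from GENCODE 29, and positions from RefSeq GRCh38.p14 (all 75 members matched by identifier). Values in every library are given for called members of at least 2-fold without overlap (up to 5 a family, from 1 CPM), the 2 highest of each family, and tamoxifen enzymes. For the partner lists up to 3 genes at each end are named, except 2 that are not reported here. DHRS3, GSS, the 3 promoters and the further members described were chosen after their values were seen.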

Additional observations from a re-analysis of the deposited data

How the results depend on the processing

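The number of members called was 44, and 35 to 45 under the alternatives that keep all libraries (edgeR with other scaling, filters or the block, voom, and DESeq2), the 35 at a mean CPM of at least 5, where 43 members are tested. It was 42 to 50 without 1 library. Without T47D-TR replicate 3 it was highest, with 18 members lower instead of 13. No member reversed its direction with a call, and 41 members kept their call in every setting in which they were tested. With voom and quantile normalization the log2 fold changes of all tested genes shifted by a median of -0.11, the share of higher calls among all calls went from 51.6% to 43.0%, and 30 members were higher and 15 lower. The titles do not state whether their replicate numbers pair the libraries. Same-numbered libraries deviated from their group means with correlations of -0.0051, -0.021 and -0.014. Paired libraries whose deviations are mostly counting error could give such low values too, so pairing was not excluded. A fit with the replicate block called 43 members and 9954 of all genes, against 10053. DESeq2 called 9118 genes. Counting UGT1A once gave 36 calls, and keeping members with under 10% shared stretches gave 32 of 44. Both, and the exclusion of genes that passed the filter through 1 group, were chosen after seeing the data. Beyond those given with the results, calls changed for CYP4V2 (higher, log2 0.90, adjusted p = 0.054 in edgeR), CYP20A1 and CYP27C1 when 1 library was left out, and the cause was not tested. CYP24A1 had fitted log2 fold changes of 4.66 to 7.25, a value that depends on the prior count.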
